A study of Brugia malayi with 68 samples.

Results

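Adult female Brugia malayi worms recovered from gerbils given ivermectin were compared with females from untreated gerbils, with both recovery days pooled. Brugia malayi is a filarial nematode that causes lymphatic filariasis in people and is kept in the laboratory in Mongolian gerbils, where adults and their larvae live in the peritoneal cavity after intraperitoneal infection. The comparison held 12 of the 68 libraries in the deposited table, chosen by their labels alone. Of these, 6 came from females of gerbils treated with 0.2 mg/kg ivermectin, with 3 libraries at day 1 and 3 at day 7 after treatment. The other 6 came from females of untreated gerbils at the same days. Some labels give the solvent DMSO for these controls, while the treatment protocol describes them as left untreated, and they are called untreated here. Each ivermectin library was paired with the untreated library of the same day and replicate number, which gave 6 pairs. Females given albendazole (1 mg/kg) or diethylcarbamazine (6 mg/kg), 6 libraries each, and male worms and microfilariae of the same rounds served for comparison. The number of worms or gerbils pooled in a library is not given in the sources used here.

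Ivermectin opens glutamate-gated chloride channels, which nematodes have on nerve and muscle cells, and so silences or paralyses the tissues that carry them. In filarial infections it is known for clearing microfilariae, the larvae that females release, and for a lasting suppression of their release, while most adult worms survive a dose. A female's body holds her own tissues together with a uterus filled with embryos at every stage, stretched microfilariae close to release, and stored sperm. RNA from a whole female therefore mixes these sources. In such samples fewer cells of a type and less RNA per cell cannot be told apart.

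The table gives genes by identifier only, and the files do not pair the identifiers with names: 0 of the 11590 identifiers matched the reference list of 11688 genes. Genes are therefore described here by their level and by the stage in which they are abundant, and few are named. Library totals were 13466101 to 25963699 counts with ivermectin and 6455701 to 16812365 counts in untreated females. The ivermectin library was the deeper one in 5 of 6 pairs (exact sign-flip test over pairs, two-sided p = 0.0625, where 0.03125 is the smallest possible with 6 pairs; adjusted p = 0.234 over 5 library measures). Genes with at least 1 count numbered 11013 to 11159 with ivermectin and 10782 to 11104 in untreated females. The pair of day 1 replicate 3 stood apart from the other pairs in both of its libraries. On the first principal component, which held 60.0% of the variance, its ivermectin library was at 69.1 and its untreated library at 69.3, while the highest of the 10 other libraries was at -1.62. The 100 most abundant genes took 19.7% of counts in its ivermectin library and 20.7% in its untreated library, against 12.5% to 14.6% in the other ivermectin libraries and 12.5% to 14.2% in the other untreated ones. The differences within this pair had an SD of 0.33 over genes on the log2 scale, inside the range of the other pairs (0.28 to 0.42).

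Over both days, no gene in females with ivermectin passed the edgeR test, and differences were small in nearly all genes. Of 9876 genes with enough counts, 0 (0%) had an adjusted p under 0.05 in edgeR's quasi-likelihood test with the pairs as a block, and the smallest adjusted p was 0.228. At an unadjusted p under 0.05 there were 969 genes (9.81%), where 494 are expected if no gene differs. They were split nearly evenly into 491 higher (4.97%) and 478 lower (4.84%). The excess over 494 rested in part on single pairs: 529 genes were left without day 1 replicate 2 and 633 without day 7 replicate 3, and 733 to 1258 without 1 of the others. The limma-voom test on the same pairs called 0 genes with 1003 at an unadjusted p under 0.05. DESeq2 with the same block called 15 genes, 9 higher and 6 lower, with 806 at an unadjusted p under 0.05. The calls therefore depended on the test, and those of DESeq2 were small in size, at 0.32 to 0.82 on the log2 scale in either direction. All 15 ranked within the first 40 genes of the edgeR test, where their adjusted p was between 0.228 and 0.437. Of them, 13 moved the same way in every pair, beside 4.75% of all genes tested. The same pairs chose these genes, so that this agreement is no separate support for them. Of the 15, 7 were in the list of genes at least 4-fold higher in females than in males, which held 964 of the 9876 genes tested. These p-values measure the spread of the differences between pairs. According to the series' own description, the replicates were biological and each one included gerbils of every treatment.

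The median log2 fold change, ivermectin over untreated, was -0.01 with an SD of 0.17 over genes, and the 5th and 95th percentiles were -0.28 and 0.21. The 95% interval of the fold change lay wholly inside a 2-fold difference in either direction for 9608 of 9875 genes with an interval (97.3%). It lay inside 0.5 on the log2 scale for 8148 genes (82.5%), and the median half-width was 0.18. Precision followed abundance. Among the 3292 most abundant genes 99.9% had intervals inside 2-fold, and among the 3292 genes in the middle of the range 99.8% did. Among the 3291 least abundant genes with an interval the share was 92.2%. For the 100 genes of highest mean level, which held between 780 and 6674 CPM (counts scaled to 1 common library size), all 100 intervals lay inside 2-fold and the fold changes ran from -0.28 to 0.42. Of these 100 genes 65 were higher and 35 lower with ivermectin, 10 had an unadjusted p under 0.05 and 0 were called.

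**Figure D1:**
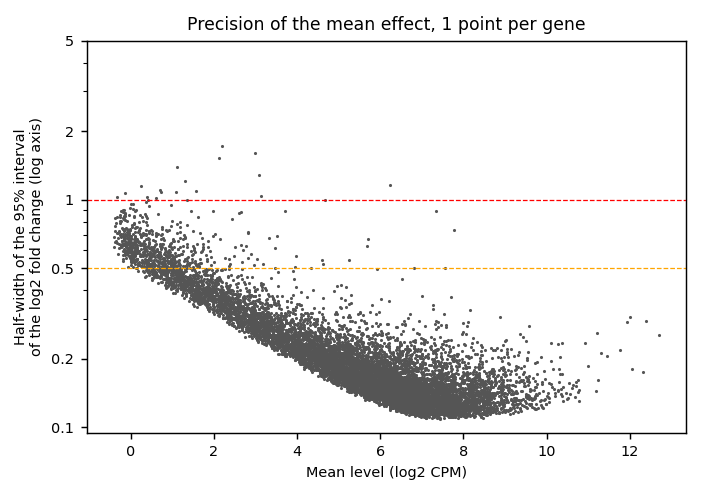
Half-width of the 95% interval of the log2 fold change (log axis), ivermectin over untreated over both days, against the mean level in log2 CPM, with 1 point for each gene tested in the 12 female libraries. The dashed lines mark half-widths of 1 (2-fold) and 0.5. The interval narrows as abundance rises, and its median half-width was 0.18.

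The gene with the smallest p was WBGene00268869, a gene whose median level is high in females and low in the other stages. It had 277, 309 and 177 CPM with ivermectin at day 1 and 216, 215 and 247 CPM with ivermectin at day 7. In the untreated partners of these libraries it had 358, 496 and 244 CPM at day 1 and 316, 235 and 339 CPM at day 7. The ivermectin library was the lower one in all 6 pairs, by 0.12 to 0.68 on the log2 scale, although the ranges of the groups overlapped. The fitted log2 fold change was -0.44 ± 0.07 (SE, 6 pairs), with edgeR adjusted p = 0.228 and DESeq2 adjusted p = 4.59e-05. It was -0.51 at day 1 and -0.38 at day 7. The difference of this gene from untreated was 0.11 in females with albendazole and -0.12 in females with diethylcarbamazine, 2 comparisons that share the untreated libraries with the ivermectin one. In females of those drugs its level was 7.75 log2 units above untreated males and 6.99 log2 units above untreated microfilariae. Male libraries reached 81.0 CPM of the library total with ivermectin (median 2.89), against 2.12 CPM at the highest in untreated males. The log2 fold change in males was 2.41 (edgeR adjusted p = 0.187). High male libraries were not particular to ivermectin. Males reached 55.6 CPM with albendazole (median 2.03) and 61.9 CPM with diethylcarbamazine (median 1.64). The ivermectin effect differed by -2.84 between females and males, which did not pass (adjusted p = 0.107). Without the pair of day 7 replicate 2 its log2 fold change was -0.51 and its edgeR adjusted p was 0.0498, the only call under that omission. Other settings gave no edgeR call for it. Its edgeR adjusted p was 0.868 without day 1 replicate 2 and 0.379 without day 1 replicate 3. In the fit of all 24 female libraries it was 0.631, and with no replicate block 0.9998.

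The next gene by p, WBGene00225126, was also lower with ivermectin in all 6 pairs. Its level was 226 CPM at the lowest, 315 CPM at the median and 1149 CPM at the highest with ivermectin, and 321, 412 and 1234 CPM in untreated females. The highest value of each group belonged to day 1 replicate 3, and the groups overlapped widely. The within-pair differences were nevertheless alike, from -0.50 to -0.10 on the log2 scale, and the fitted log2 fold change was -0.36 ± 0.07 (SE, 6 pairs; edgeR adjusted p = 0.437, DESeq2 adjusted p = 0.00154). Against the same untreated libraries it differed by -0.34 in females with albendazole and by -0.11 in females with diethylcarbamazine. Unlike the first gene, this one was abundant in every stage, with medians of 186 CPM in males and 561 CPM in microfilariae with ivermectin, against 167 and 598 CPM in their untreated counterparts. Those stage values are CPM of the library total, without further scaling.

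Among genes that were higher in every pair, WBGene00222072 led by p. It had 134, 125 and 160 CPM with ivermectin at day 1 and 123, 129 and 138 CPM with ivermectin at day 7. Its untreated partners had 91.8, 89.9 and 147 CPM at day 1 and 108, 105 and 90.2 CPM at day 7. All 6 ivermectin libraries exceeded 5 of the 6 untreated ones, and only untreated day 1 replicate 3 reached into their range. The log2 fold change was 0.37 ± 0.07 (SE, 6 pairs; edgeR adjusted p = 0.437, DESeq2 adjusted p = 0.00957). Females with diethylcarbamazine differed from untreated females by 0.40 at this gene and females with albendazole by -0.02, again against the shared untreated libraries. Set directly against albendazole, ivermectin differed by 0.40 (95% interval 0.19 to 0.60, edgeR adjusted p = 0.638), and set against diethylcarbamazine by -0.02 (-0.23 to 0.18, adjusted p = 0.9998).

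WBGene00226375, a gene of low to moderate level, was the next one higher in every pair. It had 11.8 CPM at the lowest, 21.5 at the median and 27.0 at the highest with ivermectin, and 9.42, 14.7 and 23.1 CPM in untreated females. Both groups were low in the pairs of day 1 replicates 1 and 3, so that the pairs differed more from each other than the treatments did. The within-pair differences ran from 0.22 to 0.56, and the log2 fold change was 0.43 ± 0.09 (SE, 6 pairs; edgeR adjusted p = 0.437). It did not pass in DESeq2 either (adjusted p = 0.0842). The difference from the same untreated libraries was 0.33 in females with albendazole and 0.59 in females with diethylcarbamazine.

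**Figure D2:**
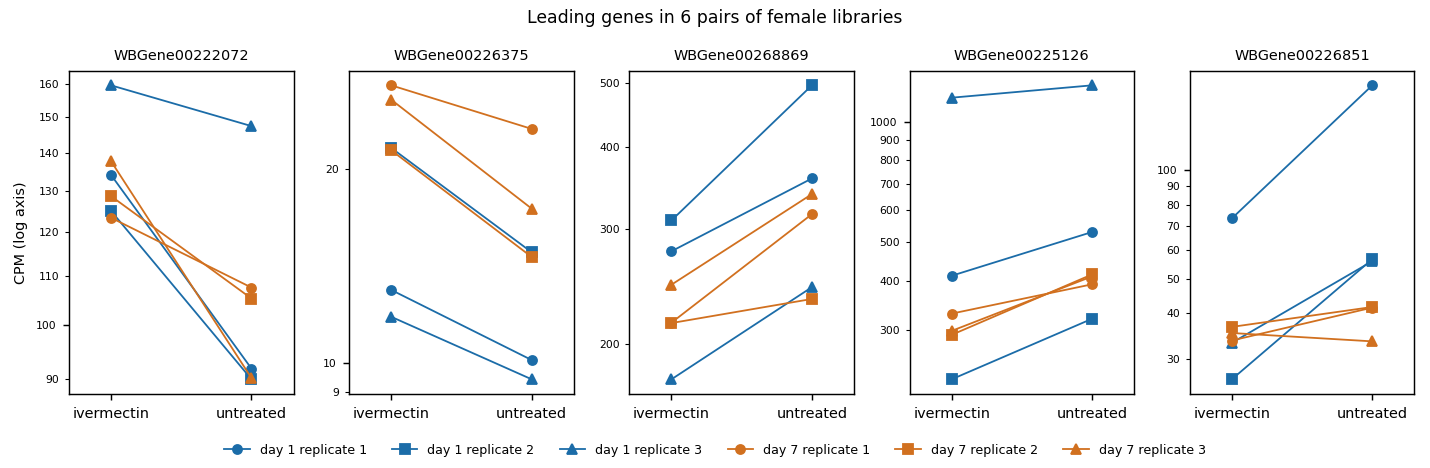
CPM (log axis) of 5 genes in the 6 ivermectin libraries and their untreated partners, with a line for each pair, blue for day 1 and orange for day 7. WBGene00222072 and WBGene00226375 were higher with ivermectin in all 6 pairs, and WBGene00268869 and WBGene00225126 lower in all 6. WBGene00226851 was lower in 3 of 3 pairs at day 1, although the groups overlapped.

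**Figure D3:**
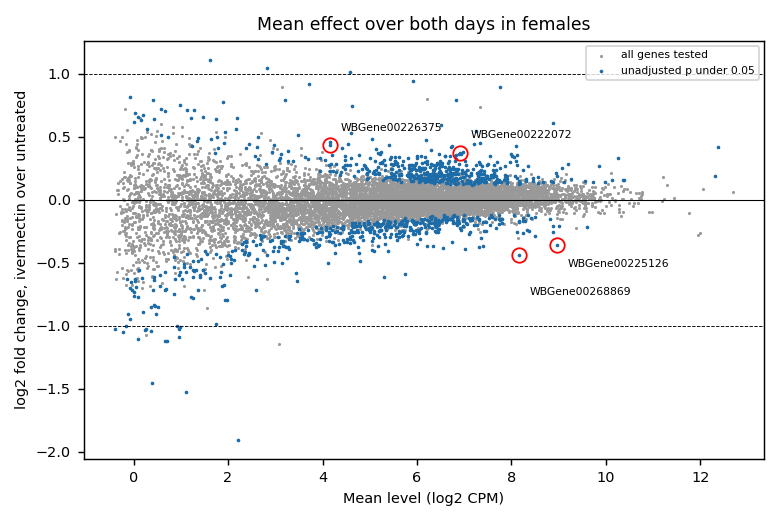
Log2 fold change over both days, ivermectin over untreated, against the mean level in log2 CPM for the 9876 genes tested. Blue points had an unadjusted p under 0.05 (491 higher, 478 lower), circles mark the 4 leading genes, dashed lines mark 2-fold, and no gene passed the adjusted threshold.

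The genes outside a 2-fold difference were few and low in level. Of 9876 genes, 3 were more than 2-fold higher and 17 more than 2-fold lower with ivermectin, none of them past the adjusted threshold. The 17 lower genes had a median mean level of 1.20 CPM, and 16 of them had their highest value in a single library, untreated day 7 replicate 2.  Without its pair, 4 genes were more than 2-fold higher and 2 more than 2-fold lower. Of the 132 genes with a fold change below -0.5, 93 belonged to a list of genes at least 4-fold higher in males than in females (1397 genes, 903 of them tested). Without that pair, 81 genes were below -0.5 and 30 of them were in the list. With no filter on low counts, edgeR called 1 gene lower over both days, WBGene00230281 (adjusted p = 0.00136). It is a gene of males that had 1 count over the 6 ivermectin libraries and 163 counts over the 6 untreated ones, 158 of them in that same library. In a fit of 34 libraries of all stages it was also the 1 gene called in females, of 10624 tested (0.00941%).

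How far pairs moved alike was examined over all 9876 genes. The same direction in all 6 pairs was found for 225 genes that were higher (2.28%) and 244 that were lower (2.47%), 4.75% in all. With even directions that were independent between pairs, a fraction of 0.03125 would move alike. The differences were widest over genes in day 1 replicate 2. Correlations of these differences across genes, taken between each of the 15 combinations of pairs, which share no library, had 0.03 as their median, with -0.17 the lowest and 0.36 the highest. The highest was between day 1 replicate 2 and day 7 replicate 3, and the lowest was between replicates 1 and 3 of day 1. Of the 15 correlations, 5 exceeded 0.1 and 6 were below 0. Genes are not independent replicates, so these values describe the libraries only.

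Each day was also tested on its own, with 1 estimate of the spread from all 12 libraries. At day 1, 1 gene (0.0101% of 9876) passed the test and was lower with ivermectin, and 590 genes (5.97%) had an unadjusted p under 0.05. That number was 1447 without day 1 replicate 1 and 281 without day 1 replicate 2. At day 7, 0 genes (0%) passed in edgeR and 0 in DESeq2 and limma-voom, and 347 genes (3.51%) had an unadjusted p under 0.05 in edgeR, fewer than the 494 expected with no effect. It was 481, 556 and 329 without day 1 replicates 1, 2 and 3, and 468, 143 and 211 without day 7 replicates 1, 2 and 3. Genes under that threshold on both days numbered 49, of which 44 moved the same way. These 44 genes were 7.46% of the day 1 genes and 12.7% of the day 7 genes. The mean fold changes of the days, which share no library, had a correlation of 0.26 across genes, and 62.8% of genes had the same sign on both days. In the test of the difference between days, 0 genes (0%) passed in edgeR with 164 (1.66%) at an unadjusted p under 0.05, 0 passed in limma-voom, and 2 passed in DESeq2.

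The gene called at day 1 was WBGene00226851. It had 73.4, 26.3 and 33.2 CPM with ivermectin in day 1 replicates 1 to 3, and 171.6, 56.6 and 55.8 CPM in their untreated partners. The ivermectin library was lower in all 3 pairs, yet the groups overlapped because both libraries of replicate 1 were high. The log2 fold change at day 1 was -1.04 ± 0.12 (SE, 3 pairs; 95% interval -1.29 to -0.78), with edgeR adjusted p = 0.0125. DESeq2 gave an adjusted p of 1.17e-09 and limma-voom one of 0.00855. At day 7 the gene had 33.7, 36.7 and 35.3 CPM with ivermectin and 41.5, 41.7 and 33.5 CPM in untreated females, a log2 fold change of -0.13 (95% interval -0.39 to 0.12) that was within the spread between pairs. The effect at day 7 minus that at day 1 was 0.90, with adjusted p = 0.9999 in edgeR and 0.0429 in DESeq2, so that a difference between days rested on the choice of test. The day 1 call was lost without the pairing (adjusted p = 1.00), without replicate 1 (0.130) and without replicate 2 (0.260), and in a fit of all 24 female libraries (0.999). The log2 fold change under these settings was -1.10, -0.92, -1.01 and -0.99, in the same order.

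WBGene00226851 was most abundant in microfilariae, lower in females and lowest in males. In females of the other drugs its level was 3.13 log2 units above untreated males and 2.39 log2 units below untreated microfilariae. Its excess in microfilariae was thus wider than the 4-fold limit used for the stage sets. Microfilariae at day 1 had 157, 39.1 and 78.3 CPM of the library total with ivermectin in replicates 1 to 3, and 184, 529 and 583 CPM when untreated. The ivermectin value was lower in each of these pairs, and over both days the microfilariae differed by -1.59 on the log2 scale, which did not pass the threshold (edgeR adjusted p = 0.0664). On the same scale, females of the other drugs at day 1 had 111, 74.6 and 17.7 CPM with albendazole and 113, 241 and 16.2 CPM with diethylcarbamazine. Replicate 3 was the lowest for both drugs, and the highest replicate was not the same for them. On that scale, females of both days had 23.2 to 74.7 CPM with ivermectin and 37.1 to 175 CPM when untreated. Over both days in the 24-library fit, the log2 difference from untreated was -0.54 with ivermectin, -0.49 with albendazole and 0.17 with diethylcarbamazine. None passed in edgeR (adjusted p = 0.894, 0.917 and 0.900), and these comparisons share the untreated libraries. Ivermectin differed from albendazole by -0.05 and from diethylcarbamazine by -0.72, and neither passed.

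**Figure D4:**
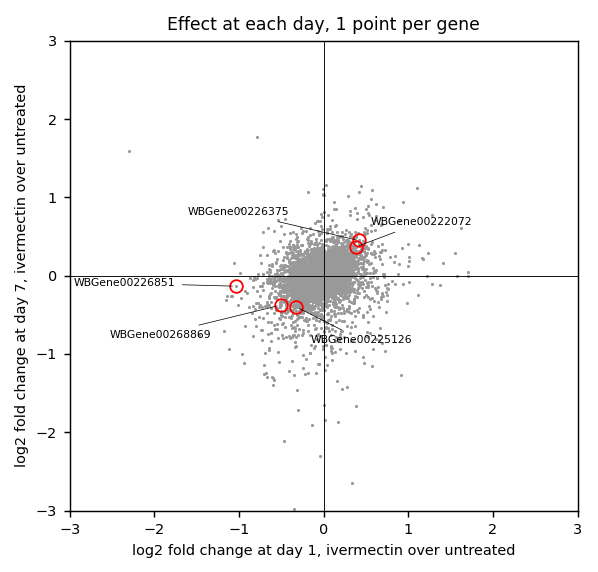
Log2 fold change, ivermectin over untreated, at day 1 (x axis) and at day 7 (y axis), with 1 point for each of 9876 genes. The 4 genes that led over both days lie near the diagonal, while WBGene00226851 lies at -1.04 for day 1 and -0.13 for day 7.

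The other genes with the smallest p for the difference between days, among those whose pair differences of day 7 did not overlap those of day 1, were not past the threshold in edgeR (adjusted p = 0.9999 for each). WBGene00224105 had 24.3, 59.8 and 27.9 CPM with ivermectin at day 1 against 14.4, 41.7 and 17.5 CPM in untreated females, and 20.8, 56.5 and 49.5 CPM with ivermectin at day 7 against 30.0, 54.4 and 73.1 CPM. It was higher with ivermectin in 3 of 3 pairs at day 1 and in 1 of 3 at day 7, with an effect at day 7 minus day 1 of -0.98 ± 0.19 (SE; DESeq2 adjusted p = 0.0429). WBGene00236790 had 200, 165 and 57.5 CPM with ivermectin at day 1 against 244, 291 and 70.6 CPM in untreated females, and 150, 163 and 270 CPM with ivermectin at day 7 against 148, 151 and 181 CPM. It was lower with ivermectin in every pair of day 1 and higher in every pair of day 7, a difference of 0.71 ± 0.18 (SE). WBGene00233064 differed by -0.62 ± 0.16 (SE) between the days, and its DESeq2 result did not pass either.

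At day 7 the genes with the smallest p that moved alike in the 3 pairs did not pass the threshold (edgeR adjusted p = 0.9996 for each). WBGene00226383, which is enriched in females, had 68.2, 80.6 and 71.3 CPM with ivermectin and 51.8, 60.8 and 48.6 CPM in untreated females, a log2 fold change of 0.45 ± 0.10 (SE, 3 pairs). WBGene00226476, also enriched in females, had 101, 119 and 121 CPM with ivermectin and 90.5, 77.3 and 83.9 CPM in untreated females, a log2 fold change of 0.44 ± 0.10. For both genes the ivermectin values lay above all untreated values of that day. On the lower side were WBGene00230961 and WBGene00232630, whose levels differed between females and males by -8.47 and -7.97 on the log2 scale. WBGene00230961 had 0.71, 0.99 and 0.54 CPM with ivermectin and 0.73, 7.12 and 1.54 CPM in untreated females. WBGene00232630 had 1.42, 2.19 and 1.68 CPM with ivermectin and 2.18, 11.5 and 2.85 CPM in untreated females. The highest value of each was again that of untreated day 7 replicate 2.

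Groups of genes that mark the stages were followed next, since a female library can hold RNA of embryos, microfilariae and sperm. For this, 4 sets of 100 genes were chosen from libraries outside the 12, by at least a 4-fold difference and the smallest p: females of the other drugs against untreated males, and against untreated microfilariae, each in both directions. Over all 100 genes of each set, with no filter on counts, the median log2 fold change with ivermectin was -0.02 for genes higher in females than in males and -0.02 for genes higher in females than in microfilariae. It was 0.04 for genes higher in microfilariae than in females and -0.27 for genes higher in males than in females. The median over all 9876 genes tested, in the fit with the filter on low counts, was -0.01, with 4729 genes higher and 5147 lower. No gene of any set was called in edgeR. DESeq2 called 2 genes of the female-over-male set, 1 of which was also in the female-over-microfilaria set, and 0 of the male and microfilarial sets. After the filter on low counts 100, 100, 83 and 86 genes of these sets were left, in the order of the medians above. In that fit, beside the -0.01 of all genes, their medians were -0.03, -0.03, 0.02 and -0.26.

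The male set was the one furthest from the median of all genes, and 1 library carried most of its difference. The mean level of the set was 1.27 to 1.43 log2 CPM in the 6 ivermectin libraries, 1.24 to 1.57 log2 CPM in 5 untreated libraries and 2.42 log2 CPM in untreated day 7 replicate 2. The summed level of its genes was 482 to 535 CPM with ivermectin, 492 to 568 CPM in those 5 untreated libraries and 781 CPM in that 1 library. The median within-pair difference was -0.94 in the pair of day 7 replicate 2 and -0.14 to -0.02 in the other 5 pairs. In that pair 169 genes were more than 2-fold lower with ivermectin, and 156 of them were in the list of genes 4-fold higher in males, which made up 903 of the 9876 genes tested. In the other pairs 16 to 39 such genes were in the list, of 50 to 164 that were lower. Without the pair the median of the set was -0.08 in place of -0.26, both over the genes that passed the filter. Against the same untreated libraries, its median was -0.195 in females with albendazole and -0.116 in females with diethylcarbamazine. Those females also served to choose the set, which favours low values in them. The source of male-type RNA in untreated day 7 replicate 2 was not tested.

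The set of genes higher in microfilariae moved in another pair. Its median within-pair difference was 0.41 in the pair of day 1 replicate 3 and -0.09 to 0.06 in the other 5 pairs. The mean level of the set was 2.92 log2 CPM in ivermectin day 1 replicate 3 and 2.02 to 2.26 log2 CPM in the other ivermectin libraries, against 2.04 to 2.47 log2 CPM in untreated females. In the same pair the genes higher in females than in males had a median difference of -0.32 and those higher in females than in microfilariae one of -0.34. In the other pairs these values were -0.09 to 0.14 and -0.13 to 0.12. The median of the microfilarial set was below 0 in 4 of the 6 pairs.

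**Figure D5:**
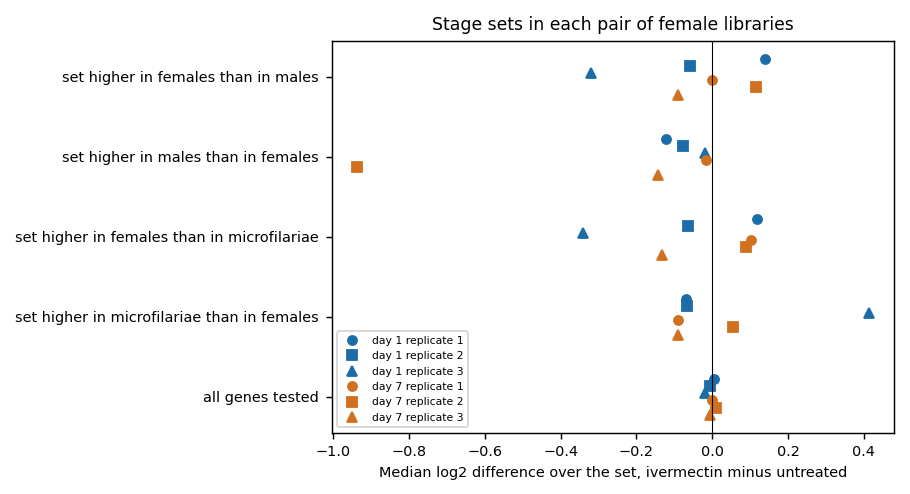
Median log2 difference within each pair, ivermectin minus untreated, over the 100 genes of each stage set and over all genes tested, with blue symbols for day 1 and orange for day 7. The male set lies at -0.94 in day 7 replicate 2 and the microfilarial set at 0.41 in day 1 replicate 3, while all genes tested lie between -0.02 and 0.01.

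Ivermectin was set directly against the other drugs in a fit of the 24 female libraries. The contrast does not use the untreated levels, although the 6 untreated libraries enter the filter and the estimates of spread. Between ivermectin and the mean of albendazole and diethylcarbamazine, 0 of 10070 genes (0%) passed in edgeR and 0 in DESeq2, with 205 (2.04%) and 239 genes at an unadjusted p under 0.05. Against albendazole alone 0 genes passed with 747 (7.42%) at an unadjusted p under 0.05, and against diethylcarbamazine alone 0 passed with 298 (2.96%). With the albendazole libraries left out of the fit, the number for diethylcarbamazine was 820 of 9957 genes in place of 298, and 0 passed. WBGene00225641, which is enriched in females, had the smallest p against the mean of the other drugs. It had 31.1, 18.0, 13.9, 28.5, 27.6 and 23.8 CPM of the library total with ivermectin (day 1, then day 7), 37.9, 22.1, 34.9, 31.5, 29.7 and 32.5 CPM with albendazole, and 52.2, 18.6, 17.6, 40.3, 35.0 and 28.6 CPM with diethylcarbamazine. The ivermectin value was the lowest of the 3 drugs in every day and replicate. The log2 difference was -0.38 ± 0.10 (SE, 6 blocks; edgeR adjusted p = 0.9997). WBGene00268869 came next, at -0.44 ± 0.12 (SE, 6 blocks; adjusted p = 0.9997), and it was lower than the mean of both drugs in every block. On the higher side WBGene00228085 differed by 0.59 ± 0.17 and WBGene00226301 by 0.23 ± 0.07, with the same adjusted p of 0.9997. WBGene00228085 was low in all these libraries, with 0.76 to 1.71 CPM of the library total with ivermectin, 0.69 to 1.34 CPM with albendazole and 0.44 to 0.96 CPM with diethylcarbamazine.

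Whether the effect of ivermectin differed between stages was tested in 34 libraries of females, males and microfilariae. Females minus males, 5 of 10624 genes (0.0471%) passed, all lower in the difference. In males, 4 of the 5 were themselves called higher with ivermectin, and these were all the calls in males (0.0377%). All 4 are genes of females, 9.03 to 9.93 log2 units higher in females of the other drugs than in untreated males. The difference that chose these 5 genes uses the same male and female values, so that nothing is read from counts of calls among them. In females, 4 of the 5 could be tested in the 12 libraries. Their fold changes were -0.14 to 0.00, and 0 had an unadjusted p under 0.05. The other gene, WBGene00230281, was the 1 gene called in females in the 34-library fit. Its log2 fold change there was -7.36 in females (edgeR adjusted p = 0.00531) and -0.14 in males (0.99975). Of its 163 counts in untreated females, 158 were in day 7 replicate 2. WBGene00228930, a gene of females, was the one named by the rule of equal direction in every matched pair. It had 28.9 to 128 CPM of the library total in females with ivermectin and 38.6 to 129 CPM in untreated females, where the log2 fold change was 0.00. Males had 23.8 CPM with ivermectin in day 1 replicate 2 and 0.08 to 2.5 CPM in the other 5 ivermectin libraries, against 0.04 to 0.71 CPM when untreated. The difference between stages was -4.37 ± 0.73 (SE, edgeR adjusted p = 0.0180), and it lay in the male libraries at levels far below those of females. Without the male pair of day 1 replicate 2, whose ivermectin library held 23.8 CPM, it was -1.91 with an adjusted p of 0.424. The call was lost in 8 of 11 alternatives, DESeq2 (-2.55, adjusted p = 0.628) and no replicate block (0.419) among them. The count of 5 genes was 2 without the female pair of day 7 replicate 2, 3 without any 1 of 4 others and 4 without day 1 replicate 1.

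Females minus microfilariae, 79 of 10624 genes (0.744%) passed, 74 of them lower in the difference and 5 higher. The count was 27 without the female pair of day 1 replicate 1, 6 without day 1 replicate 2 and 62 without day 1 replicate 3. It was 41, 5 and 22 without the female pairs of day 7 replicates 1, 2 and 3. Of these 79, 62 were called in microfilariae themselves, 60 higher and 2 lower with ivermectin, out of 146 genes (1.37%) called there. Of the 55 genes that could be tested in females, 15 had an unadjusted p under 0.05, beside 9.81% of all genes tested, none passed the adjusted threshold (the smallest was 0.437), and the fold changes in females ran from -1.04 to 0.45. The difference that chose these genes uses the same female and microfilarial values, so that nothing is read from the counts in either stage. WBGene00220284 was the gene at the upper end of that range. At day 1 it had 364, 174 and 231 CPM of the library total in females with ivermectin and 225, 78.0 and 211 CPM in untreated females. At day 7 it had 70.0 to 118 CPM with ivermectin and 74.1 to 86.4 CPM in untreated females. The ivermectin value was higher in 5 of 6 pairs, and the fit gave 0.45 ± 0.14 on the log2 scale (SE; adjusted p = 0.437 in edgeR). Microfilariae had 301, 164, 352, 175 and 343 CPM with ivermectin and 493, 361, 545, 395 and 416 CPM when untreated, lower in each of the 5 pairs, and the difference between the stages was 1.28 ± 0.26 (SE, adjusted p = 0.0337). It was 1.15 to 1.42 over 10 alternatives and lost its call in 4 of them, with no replicate block (0.212) and without the female pairs of day 1 replicate 1 (0.0575), day 1 replicate 2 (0.0634) and day 7 replicate 2 (0.0955).

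WBGene00229987 had 47.8 to 118 CPM of the library total in females with ivermectin and 60.2 to 116 CPM in untreated females, a log2 fold change of -0.09 ± 0.08 (SE). In microfilariae it had 0.70 to 7.10 CPM with ivermectin and 0.51 to 1.60 CPM when untreated, and the difference between the stages was -1.77 (edgeR adjusted p = 0.0198). WBGene00230196 differed between the stages by 4.09 (adjusted p = 0.0128), with 0.36 to 10.2 CPM in females with ivermectin and 0.73 to 8.74 CPM in untreated females. Its microfilariae had at most 1.18 CPM with ivermectin and at most 18.9 CPM when untreated. WBGene00231369, a male gene that was near 0 in females and was not tested in the 12 libraries, differed by -8.06 (adjusted p = 0.0198). In the same fit its log2 fold change was 4.76 in microfilariae (edgeR adjusted p = 0.0119) and -3.30 in females (0.446). Without the female pair of day 7 replicate 2 the difference between the stages was -5.29 (adjusted p = 0.223). The call was also lost with no replicate block (0.0963). Of its 6 ivermectin libraries of females 4 had 0 counts, so that the fitted difference depends on the small count added in the fit.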

How the data were processed

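RNA was sequenced from whole female, male and microfilarial Brugia malayi, with strand-specific libraries per the labels' protocols. The authors deposited 1 table of raw read counts per gene, with 11590 genes and 68 libraries, and each column was matched to its sample by the description in the labels. TopHat2 2.0.14 and HTSeq 0.6.1p1 are named in the submitters' processing notes, and their roles, the genome build and the counting settings are not given in the sources used here. No row without a gene name was used, and 0 columns lacked a sample.

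The 12 libraries were fitted with edgeR 4.0.16 (R 4.3.3), using TMM scaling, filterByExpr (min.count 10, min.total.count 15, which dropped 1714 genes), glmQLFit and glmQLFTest, two-sided, with Benjamini-Hochberg adjustment over all genes tested and a threshold of 0.05. The block was day and replicate number, because the series' description puts gerbils of every treatment in each replicate. Libraries of 1 pair deviated together from the means of their group and day. The correlations over genes were 0.61, 0.78 and 0.89 at day 1 and 0.56, 0.28 and 0.18 at day 7, for replicates 1 to 3. At day 1, replicate 3 stood apart in both groups and moved both means, which by itself raises the correlations of that day. Of the 6 ivermectin libraries, 5 correlated best with their own partner among the untreated libraries of their day. Day 7 replicate 2 (0.28) did not. CPM values use TMM-scaled library sizes unless said to be of the library total, and log2 CPM values add a prior count of 2. The 95% intervals come from the edgeR coefficients. DESeq2 1.42.0 and limma 3.58.1 gave alternatives. The fits were tested on simulated data. No 2 of the 66 pairings of the 12 libraries agreed within sampling noise (the lowest chi-square per gene was 3.98).

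Genes are named by the smallest p among those that moved the same way in every pair, at most 2 in each direction. For the difference between days the pair differences of both days may not overlap. Where genes passed the threshold, only they are named. WBGene00230281 was chosen after its values were seen. Lists by gene product could not be used without gene names, and stage sets took their place. The members, lists and sets were chosen with earlier results of these data known.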

Additional observations from a re-analysis of the deposited data

Results flagged for a closer look

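A library that lay far from the others of its group was found in 14 of 48 groups of 6 values examined, where chance gives about 1 in 20. The pair of day 1 replicate 3 accounts for 10 of the 14. The share of counts in the 100 most abundant genes was 19.7% in its ivermectin library and 20.7% in its untreated library, and the TMM factor was 0.699 and 0.672. For its ivermectin library alone, the mean level of the genes higher in females than in males was low at 6.78 log2 CPM, and that of the genes higher in microfilariae was high at 2.92 log2 CPM. The median difference of the microfilarial set within this pair was 0.41. WBGene00225126 was high there in both groups, at 10.17 log2 CPM with ivermectin and 10.27 log2 CPM in the untreated library, and WBGene00222072 was high in its untreated library at 7.21 log2 CPM.

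Untreated day 7 replicate 2 was high in the male set, at 2.42 log2 CPM, and the median difference of the set in its pair was -0.94. WBGene00226851 was high in the pair of day 1 replicate 1, at 6.20 log2 CPM with ivermectin and 7.42 log2 CPM in the untreated library. The source of these departures was not tested.

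The effect of ivermectin differed between females and another stage, by a test of the difference itself, for 5 of the named genes. The difference on the log2 scale was -4.37 for WBGene00228930 against males, a call lost in 8 of 11 alternatives. Against microfilariae it was 1.28 for WBGene00220284, -1.77 for WBGene00229987, 4.09 for WBGene00230196 and -8.06 for WBGene00231369. Over 10 alternatives the calls were lost in 4, 1, 1 and 2, in the same order. In females, none of the 4 of these genes that were tested had an edgeR adjusted p under 0.05.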

How the results depend on the processing

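The count of genes called over both days was 0 under RLE size factors, limma-voom, a stricter filter (min.count 50), no replicate block (146 genes at an unadjusted p under 0.05, in place of 969), all 24 female libraries, the mean of the day effects, and without both outlying pairs together. It was 15 with DESeq2 and 1 with no filter on low counts, and 0 to 1 when 1 pair was left out. At day 1 the count of 1 became 4 with DESeq2, 0 with no replicate block, 0 with all 24 female libraries and 0 to 2 when 1 pair was left out. At day 7 the count of 0 became 1 with no filter and was 0 when any 1 pair was left out. For the difference between days the count of 0 became 2 with DESeq2 and was 0 to 1 when 1 pair was left out. For ivermectin against the mean of the other drugs it was 0 under all 12 alternatives run. For females minus males the count of 5 became 0 with no replicate block and 2 to 4 when 1 female pair was left out. For females minus microfilariae the count of 79 became 283 with DESeq2, 0 with no replicate block and 5 to 62 when 1 female pair was left out. The causes of these shifts were not tested. The block changed no other call. The medians of the stage sets moved by less than their spread between pairs under all 11 alternatives. That spread takes in the outlying pairs, with an SD of 0.36 for the male set, so the comparison could not show their weight. Without day 7 replicate 2 the male median was -0.08 in place of -0.26. The female-over-male median ran from -0.07 to 0.03 and the female-over-microfilaria median from -0.06 to 0.03. The microfilarial median ran from -0.07 to 0.04, so that none of these 3 has a fixed direction, and the male one ran from -0.30 to -0.08. RLE scaling moved the median of all genes by 0.01. The median half-width of the 95% interval was 0.34 on the log2 scale over the 3291 least abundant genes, against 0.14 over the 3292 most abundant.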
